A study of Homo sapiens with 8 samples.

Results

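The 10 genes *TGFB1*, *TGFB2*, *TGFB3*, *TGFBR1*, *TGFBR2*, *SMAD3*, *SMAD7*, *TGFBI*, *INHBA* and *BMP4* were followed in 4 human lung cancer cell lines. They were taken by name, as ligands, receptors, signal carriers and targets of the TGF-beta pathway, from 22439 genes matched to the probes. Earlier results of these data were known when they were chosen. Each was read by 1 probe, and 10 of 10 gave a usable ratio on at least 1 of the 8 arrays. The arrays were Agilent expression arrays with a pair of dyes, on 1 slide: treated RNA was labelled with Cy5 and control RNA with Cy3, and no dyes were swapped. EBC-1 and SK-MES-1 cells, both lung squamous carcinoma lines, were transfected with *miR-150-3p* (1 array each). SBC-3 small cell lung cancer cells received siRNA against *DONSON*, a replication fork factor (siDONSON-1, siDONSON-2 and siDONSON-3). A549 adenocarcinoma cells had been genome edited at *LOXL2*, a lysyl oxidase that crosslinks collagen (GE1, GE2 and GE3). The controls of the transfected cells carry both the word mock and a label of no transfection, so it is not settled whether they met the transfection reagent. The control of the edited cells was A549 without editing. The labels do not say whether the numbers of the siDONSON or GE arrays mark different siRNAs, clones or cultures. The p-values therefore rest only on spread between arrays of a group, which may be technical. For a gene counted in both SBC-3 and A549 this spread was pooled over both groups. It was then moderated over genes by limma, so no SE of a fit is that of the ratios of a gene alone.

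In the control channels, EBC-1 had only *SOX2* of 7 squamous markers well above background, whereas SK-MES-1 had *TP63*, *KRT14*, *SOX2* and *PKP1*. A549 had *NAPSA*, *KRT7* and *KRT18* of 6 adenocarcinoma markers, without *NKX2-1*, *SFTPB* or *SFTPC*. SBC-3 had *NEUROD1*, *YAP1*, *CHGA*, *SYP* and *DLL3* of 9 small cell markers, and *POU2F3*, *INSM1* and *NCAM1* were among those not above background. Many of these markers were not particular to a line. *YAP1*, *DLL3*, *SOX2*, *KRT7* and *KRT18* were above background in every line, *NAPSA* also in EBC-1 and SK-MES-1, and *CHGA* also in A549. SBC-3 also had the squamous markers *TP63* and *SOX2*. The targeted genes were lower on every array meant to lower them. The log2 ratio of *DONSON* was -2.15, -1.79 and -2.11 (adjusted p = 0.00328 from limma), and that of *LOXL2* was -2.49, -2.67 and -2.59 (adjusted p = 0.00448 from limma).

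TGF-beta ligands are secreted in a latent form and, once freed, bind the type II receptor, which recruits and phosphorylates the type I receptor. The type I receptor then phosphorylates SMAD2 and SMAD3, which enter the nucleus with SMAD4 and change transcription, and SMAD7 is induced as a feedback inhibitor. Activins and BMPs use related receptors, and BMPs signal through another group of SMADs. In epithelial cells the pathway is known for growth arrest, matrix production and epithelial-mesenchymal transition.

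The control levels of these genes set SBC-3 apart from the other lines. *TGFBI*, a secreted matrix protein named for its induction by TGF-beta, had a log2 control signal of 16.32 in SK-MES-1, of 16.08 to 16.13 on the 3 A549 arrays and of 15.35 in EBC-1. In SBC-3 it was not well above background on any of 3 arrays. Its level was at least 1937-fold higher in A549, at least 2237-fold higher in SK-MES-1 and at least 1142-fold higher in EBC-1 than in SBC-3. These bounds set the measured level against the lowest signal of any probe well above background on each SBC-3 array.

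*TGFB2*, *INHBA* and *BMP4* were likewise not well above background in the SBC-3 control. *TGFB2*, a ligand, had a log2 control signal of 8.79 in SK-MES-1, of 8.50 to 8.53 in A549 and of 7.16 in EBC-1, so it was at least 12.1-fold, 9.99-fold and 3.91-fold higher in these lines than in SBC-3. SK-MES-1 lay 0.27 above the A549 mean on the log2 scale. *INHBA*, the beta A subunit that forms activin A, was at 9.17 in SK-MES-1 and 7.98 in EBC-1, and was not well above background in A549 or SBC-3. It was at least 19.6-fold higher in SK-MES-1 than in A549. *BMP4*, a bone morphogenetic protein, was at 9.68 in EBC-1, 8.08 in SK-MES-1 and 6.50 to 6.63 in A549, each step down being larger than the spread within a line. In SBC-3 its treated channel was above background on the siDONSON-1 array only.

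The promoter bases of *TGFBI*, *TGFB2* and *INHBA* are shown because these genes lacked signal in SBC-3 and have 1 start each in RefSeq (GRCh38.p14). Each line holds the 250 bases before the start, read on the strand of the gene, with motif matches on either strand in capitals. The capitals mark the GC box, which reads GGGCGG. They also mark the element upstream of many starts that reads TATAAA, called the TATA box. The windows are chr5:136028738-136028987 (plus strand), chr1:218345086-218345335 (plus strand) and chr7:41703091-41703340 (minus strand).
TGFBI: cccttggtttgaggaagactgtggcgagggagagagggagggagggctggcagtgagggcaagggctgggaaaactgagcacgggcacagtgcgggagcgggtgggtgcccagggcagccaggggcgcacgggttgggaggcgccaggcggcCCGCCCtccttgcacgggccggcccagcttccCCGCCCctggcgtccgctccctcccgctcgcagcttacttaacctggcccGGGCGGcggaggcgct
TGFB2: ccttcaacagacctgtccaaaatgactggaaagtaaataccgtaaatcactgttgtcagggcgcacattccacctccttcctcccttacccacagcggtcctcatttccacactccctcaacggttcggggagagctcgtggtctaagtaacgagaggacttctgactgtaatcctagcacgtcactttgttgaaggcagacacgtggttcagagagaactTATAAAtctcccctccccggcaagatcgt
INHBA: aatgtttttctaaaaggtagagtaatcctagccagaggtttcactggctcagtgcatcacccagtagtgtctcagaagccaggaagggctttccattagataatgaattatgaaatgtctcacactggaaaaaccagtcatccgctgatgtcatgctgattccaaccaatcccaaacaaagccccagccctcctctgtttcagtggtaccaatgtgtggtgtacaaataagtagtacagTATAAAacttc
The *TGFBI* window held 3 GC boxes, a motif found in 42.6% of 35116 promoter windows, and had 72.8% G and C. The windows of *TGFB2* and *INHBA* held 1 match to the TATA box each, beginning 29 and 11 bases before the start. This motif was found in 10.7% of windows. These 2 windows had 50.4% and 42.8% G and C. None of the 3 windows held TGACTCA (AP-1, in 4.2% of windows), TGACGTCA (CRE, in 1.65%) or GTCTAGAC (SMAD palindrome, in 0.182%). These searches took both strands, and the motifs do not overlap in these windows.

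*SMAD3*, which carries the signal of the receptors to the nucleus, had a signal in every line but was lowest in SBC-3. Its log2 control signal was 13.40 in SK-MES-1, 13.28 in EBC-1, 13.03 to 13.08 in A549 and 10.06 to 10.13 in SBC-3. The level in A549 was 7.75-fold that in SBC-3. *TGFBR2*, the type II receptor, ran the other way: it was highest in SBC-3, at 12.76 to 12.77, against 11.92 in EBC-1, 11.58 to 11.70 in A549 and 11.63 in SK-MES-1. SK-MES-1 and A549 did not differ beyond the spread of A549 for *TGFBR2*. With no scaling between arrays the difference of *TGFBR2* between A549 and SBC-3 was -0.80 on the log2 scale, against -1.13 after scaling.

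The remaining members followed no common order among the lines. *TGFB1*, the ligand most studied in this family, was at 10.75 in EBC-1, 10.51 in SK-MES-1, 10.05 to 10.08 in A549 and 8.98 to 9.09 in SBC-3. *SMAD7*, the inhibitor, was lowest in EBC-1 at 8.01, against 10.08 to 10.18 in SBC-3, 10.10 in SK-MES-1 and 9.74 to 9.92 in A549, and SBC-3 and SK-MES-1 did not differ beyond the spread. *TGFBR1*, the type I receptor, was not well above background in EBC-1 and was at 6.93 in SK-MES-1, 6.61 to 6.95 in A549 and 5.66 to 5.86 in SBC-3, and SK-MES-1 and A549 did not differ beyond the range within A549. *TGFB3*, a ligand, was not well above background in the A549 control and lay at 7.05 in EBC-1, 6.67 to 6.97 in SBC-3 and 6.33 in SK-MES-1. EBC-1 and SBC-3 did not differ beyond the range of 0.30 within SBC-3, and SK-MES-1 lay 0.48 below the SBC-3 mean.

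Of 9 members with a signal in A549 or SBC-3, 5 were more than 2-fold higher in A549 (*TGFB1*, *TGFB2*, *SMAD3*, *TGFBI* and *BMP4*) and 2 were more than 2-fold lower (*TGFB3* and *TGFBR2*). Over 26089 probes, 20.4% were more than 2-fold higher and 20.2% more than 2-fold lower in A549. With normexp background correction the count of members past 2-fold was 4 instead of 7. The level was compared within a probe only and was not tested, since the 3 control channels of a line may be 1 RNA hybridised 3 times. In cell lines, fewer cells that express a gene and less RNA per cell cannot be told apart.

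**Figure D1:**
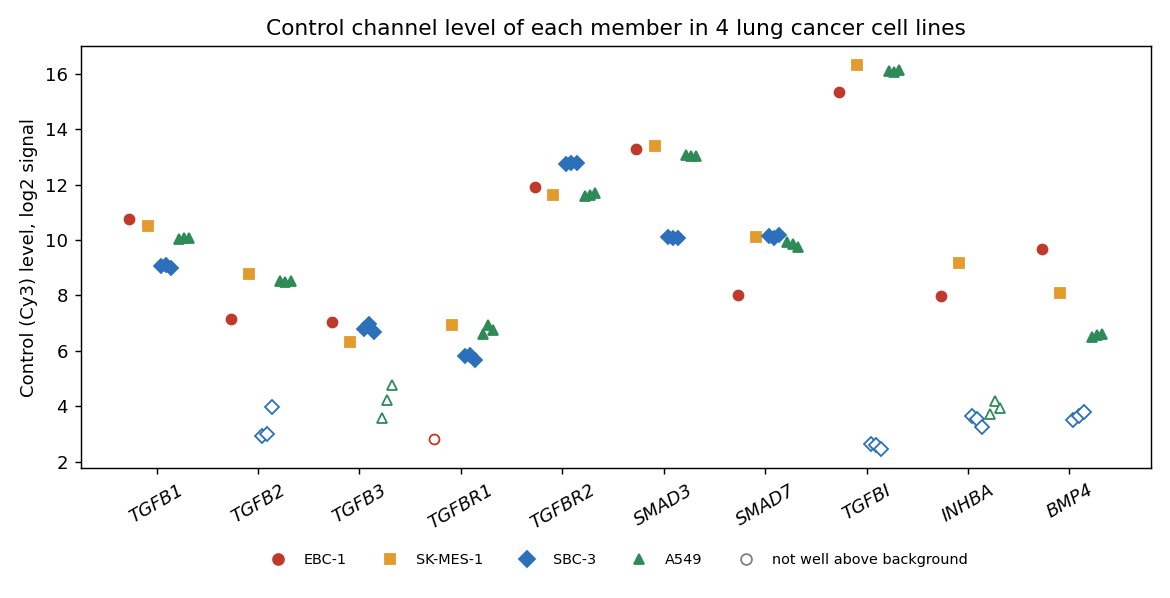
Control channel (Cy3) signal of the 10 genes, on a log2 scale after scaling between arrays, with 1 point per array and 1 symbol per cell line. Open points were not well above background. *TGFBI* lies between 15.35 and 16.32 in the other lines and has only open points in SBC-3.

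After *LOXL2* editing in A549, *TGFB2* rose, and *TGFB1* and *BMP4* fell. The log2 ratio of *TGFB2* was 1.45, 0.93 and 0.92 on GE1, GE2 and GE3. The mean was 1.10 ± 0.15 (SE, n = 3), a 2.14-fold rise (adjusted p = 0.0193 from limma). *TGFB1* had ratios of -0.41, -0.42 and -0.39, with a mean of -0.41 ± 0.10 (SE, n = 3; adjusted p = 0.0386 from limma), or 0.754 times the control. The last of these ratios lay within the error limit of the software and the others just outside it. The SE of *TGFB1* is moderated and pooled with the SBC-3 arrays, and was 0.04 with the A549 arrays alone. *BMP4* had ratios of -0.65, -0.52 and -0.79, with a mean of -0.65 ± 0.10 (SE, n = 3; adjusted p = 0.0241 from limma), or 0.636 times the control. The direction was the same on 3 of 3 arrays for each of these genes, so that a pair of TGF-beta ligands moved in opposite directions in the same cells.

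Thus 1 of 9 tested members rose and 2 fell, where over 15531 genes 8.78% rose and 8.12% fell. All 3 calls needed every array: without GE1, GE2 or GE3 in turn, 0 members passed in limma, with adjusted p from 0.0655 to 0.0901 for *TGFB2*, from 0.157 to 0.182 for *TGFB1* and from 0.108 to 0.128 for *BMP4*. With normexp background correction *BMP4* had a mean of -0.13 and was not called (adjusted p = 0.123 from limma). It was also not called with no filter on dim probes (adjusted p = 0.243 from limma) or with 3 groups in the fit (adjusted p = 0.0691 from limma). Its signal in A549 was the lowest of the lines that had one.

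*TGFBI* had ratios of 0.30, 0.42 and 0.44, with a mean of 0.38 ± 0.09 (SE, n = 3), above 0 on 3 of 3 arrays. It missed the threshold (adjusted p = 0.0579 from limma). In limma it passed with normexp (adjusted p = 0.00699), with both channels well above background (0.0375), with the spread of the A549 arrays alone (0.0182) and, in a setting chosen after seeing the data, with the prior spread of the tested genes only (0.0489). As *TGFBI* was not counted in SBC-3, its residual spread in the main fit also came from the A549 arrays only. Over all alternatives its adjusted p from limma ran up to 0.259. *TGFB3* had ratios of 1.13, 0.75 and 0.19 against a control at background, and the mean of 0.69 ± 0.25 (SE, n = 3) did not pass (adjusted p = 0.114 from limma). The receptors and SMADs did not pass either. Their mean log2 ratios were 0.19 for *TGFBR1*, 0.20 for *TGFBR2*, -0.05 for *SMAD3* and 0.04 for *SMAD7*, and *INHBA* was not well above background in either channel.

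**Figure D2:**
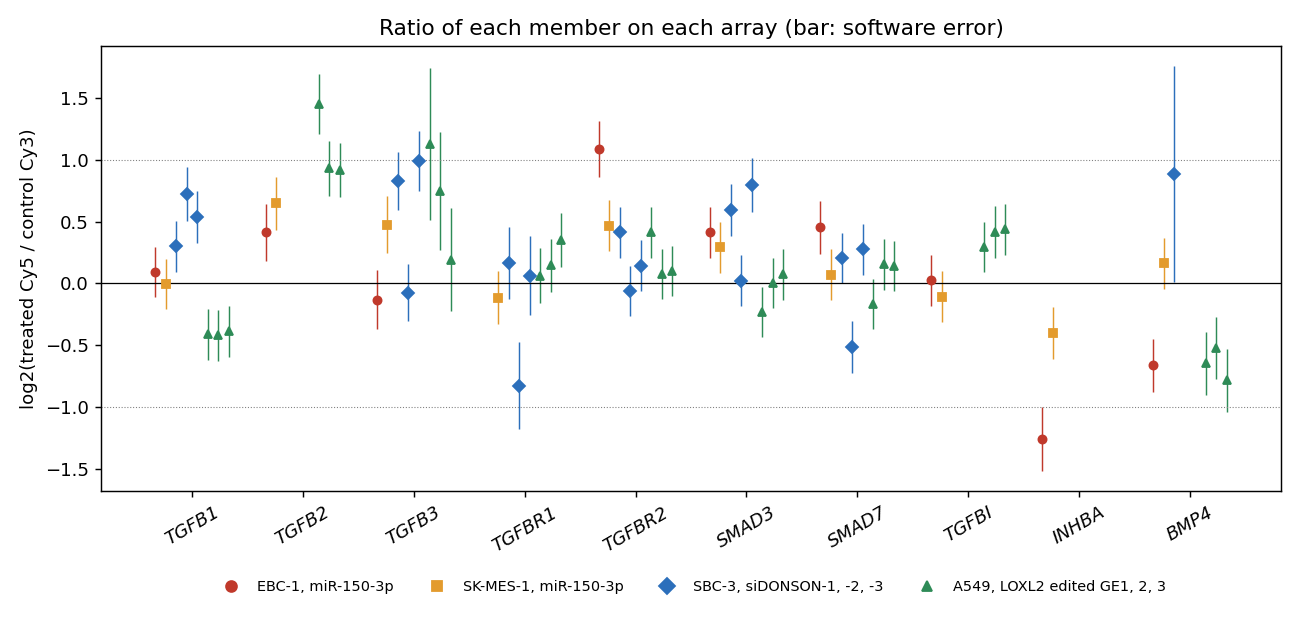
Log2 ratio of treated (Cy5) to control (Cy3) RNA for the 10 genes on each array where the probe was counted, with bars for the error the scanner software gives. Dotted lines mark a 2-fold difference. *TGFB1* lies above 0 on the SBC-3 arrays and below 0 on the A549 arrays, at 0.30 to 0.72 and at -0.42 to -0.39.

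Of 82 further genes of the pathway, 69 were measured in A549, of which 9 rose and 10 fell after editing. Over all genes 8.78% rose and 8.12% fell. The lists that follow also hold the members of their kind. Among targets of TGF-beta, 8 of 25 measured genes rose and 2 fell, and the list had a median log2 ratio of 0.24 against 0.02 for all genes. The genes that rose were *IL11*, a cytokine (2.22 ± 0.33, SE, n = 3), *TGM2*, a crosslinking transglutaminase (1.59), *COL4A1*, a basement membrane collagen (1.42), and *SNAI1*, a repressor of *CDH1* (1.17), followed by 4 others between 0.85 and 0.94. *FN1*, the matrix protein fibronectin, fell, with ratios of -1.94, -1.98 and -1.20. The count of this list that rose was 5 without GE1, 3 without GE2 and 3 without GE3.

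Of 7 measured BMP targets 2 fell and 0 rose, with a list median of -0.33, where 8.12% of all genes fell and 8.78% rose. *ID2*, an inhibitor of helix-loop-helix factors, had ratios of -1.72, -1.56 and -1.72, and *ATOH8*, a helix-loop-helix factor, had ratios of -0.92, -0.98 and -2.02. Of 17 ligands and activators 5 fell and 2 rose, counting *TGFB1*, *BMP4* and *TGFB2* among them. That list had 0 lower and 2 higher genes without GE1, 0 and 0 without GE2, 1 and 1 without GE3, and 2 and 2 with normexp. *BMP6* fell by 1.32 on the log2 scale, with GE3 nearest to 0 at -0.52, and *INHA*, the alpha subunit of inhibin, rose by 2.00. The BMP antagonist *GREM1* had ratios of -2.54, -2.55 and -1.31. Whichever array was left out, 1 BMP target fell. Of 10 measured receptors 1 fell and 0 rose, and of 10 SMADs and partners 0 were called.

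**Figure D3:**
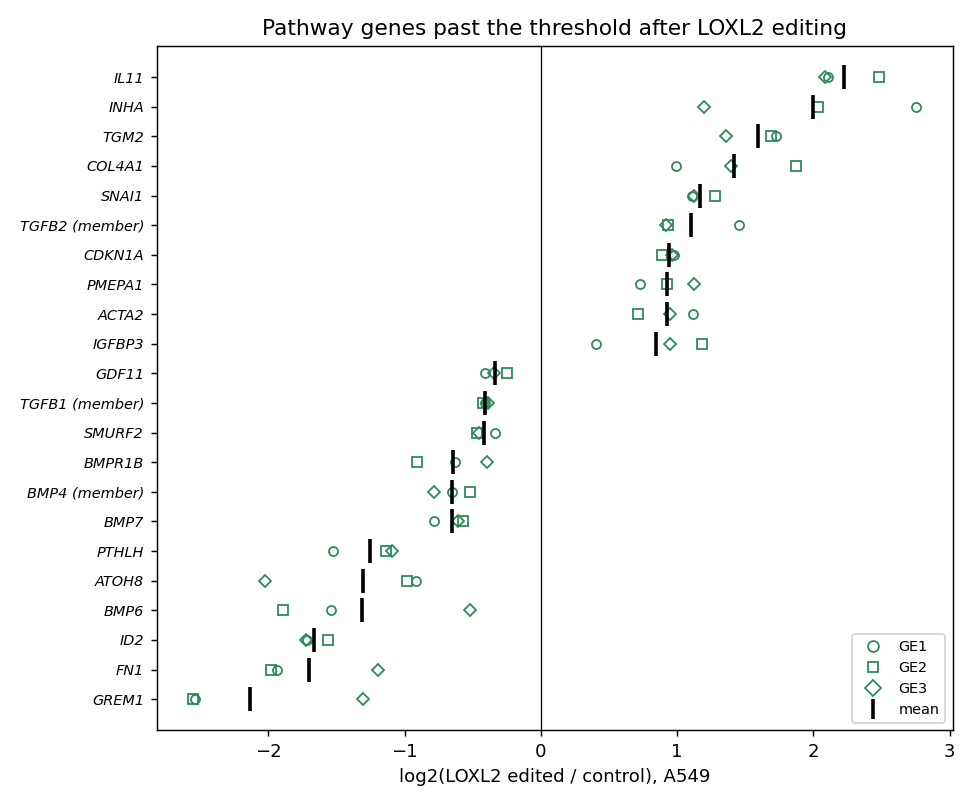
Log2 ratio of edited to control A549 cells for the pathway genes that passed the threshold, with 1 open symbol per array and a black bar at the mean of 3 arrays. The means run from -2.13 for *GREM1* to 2.22 for *IL11*, and the 3 arrays of each gene lie on the same side of 0.

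After siDONSON in SBC-3, *TGFB1* was the only member that passed. It rose on 3 of 3 arrays, with log2 ratios of 0.30, 0.72 and 0.54 and a mean of 0.52 ± 0.10 (SE, n = 3), a 1.44-fold rise (adjusted p = 0.0357 from limma). The first of these ratios lay within the error limit of the software. The call was lost without siDONSON-3 (adjusted p = 0.101 from limma) and where the spread came from the SBC-3 arrays alone (adjusted p = 0.2 from limma). Of 6 tested members 1 rose and 0 fell, where over 14453 genes 3.96% rose and 3.31% fell. That split of 573 higher to 479 lower genes became 460 to 606 when the median ratio of each array was set to 0. *TGFB1* stood on opposite sides of 0 in the SBC-3 and A549 comparisons, which differ in both cell line and treatment, and that difference was not tested.

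The siDONSON-2 array stood apart for several members. *SMAD3* had ratios of 0.59, 0.02 and 0.80 with a mean of 0.47 ± 0.16 (SE, n = 3), which did not pass (adjusted p = 0.116 from limma) but did without siDONSON-2 (adjusted p = 0.0313 from limma). *TGFB3* had ratios of 0.83, -0.07 and 0.99 (adjusted p = 0.193 from limma). *TGFBR1* had ratios of 0.16, -0.83 and 0.06, and *SMAD7* of 0.20, -0.52 and 0.28. *TGFBR2* had ratios of 0.42, -0.06 and 0.14. That array also stood apart over 22034 probes: its treated channel differed from those of siDONSON-1 and siDONSON-3 with an SD of 0.54 and 0.48. The SD between siDONSON-1 and siDONSON-3 was 0.40. How many of all genes were lowest on siDONSON-2 was not counted. Over all genes 3.96% rose and 3.31% fell in SBC-3. Of 64 other pathway genes measured in SBC-3, 4 rose and 0 fell: *CDKN1A*, a cell cycle inhibitor (0.85), *BMPR1A* (0.57) and *ACVR1* (0.46), both type I receptors, and *ID2* (0.47). None of these 4 was called without siDONSON-3 or with the spread of the SBC-3 arrays alone. Without siDONSON-1 neither *CDKN1A* nor *ID2* was, and 1 receptor was called instead of 2. *ID2* was also lost when the median ratio of each array was set to 0 and with 3 groups in the fit.

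After *miR-150-3p* transfection, *INHBA* and *TGFBR2* were the members past 2-fold in EBC-1. The array holds 10 spots of the *INHBA* probe. They had log2 ratios of -1.57 to -1.08 in EBC-1, with a mean of -1.26 ± 0.15 (SD, n = 10 spots), or 0.417 times the control. In SK-MES-1 they ran from -0.51 to -0.29, with a mean of -0.40 ± 0.08 (SD, n = 10 spots). The spots of the lines did not overlap, and all lay below 0. Spots share an RNA, so their spread is technical, and the software error of 0.21 in SK-MES-1 puts that value within its limit of 0.41. In EBC-1 3.79% of genes had a lower ratio than *INHBA*, and in SK-MES-1 9.97% did. With normexp background correction the EBC-1 value was -0.34.

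**Figure D4:**
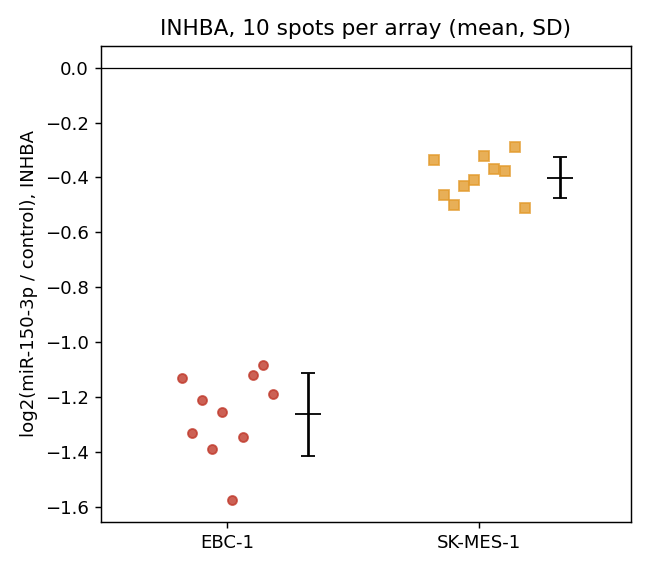
Log2 ratio of *miR-150-3p* transfected to control cells for the 10 spots of the *INHBA* probe on each array, with the mean and SD of the spots in black. The EBC-1 spots lie between -1.57 and -1.08 and the SK-MES-1 spots between -0.51 and -0.29.

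For *TGFBR2* the log2 ratio was 1.09 with EBC-1 and 0.47 with SK-MES-1 cells, both outside the error limit. *TGFB2* was at 0.42 and 0.65, *SMAD3* at 0.42 and 0.29, *SMAD7* at 0.45 and 0.07, *TGFB3* at -0.13 and 0.48, *BMP4* at -0.66 and 0.16, *TGFB1* at 0.09 and -0.00, and *TGFBI* at 0.02 and -0.11, with the EBC-1 value given first. *TGFBR1* was measured in SK-MES-1 only, at -0.12. Thus 1 of 9 members was above a log2 ratio of 1 and 1 below -1 in EBC-1, where 5.96% and 6.04% of 14759 genes were. In SK-MES-1 0 of 10 members passed either, where 2.57% and 1.27% of 16176 genes did.

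The mean of both lines was tested with limma, which called 0 of 9 members, with 3 at an unadjusted p under 0.05 (*TGFB2*, *TGFBR2* and *INHBA*). Over 14229 genes, 1.16% were called higher and 1.43% lower. *TGFBR2* came nearest, with a mean of 0.78 ± 0.18 (SE, n = 2; adjusted p = 0.064 from limma). In limma it passed with normexp (adjusted p = 0.0319) and with both channels well above background (0.0451). It also passed in limma with the prior spread of the tested genes only (0.0499), again a setting chosen after seeing the data. Without EBC-1 or without SK-MES-1 only 1 array of the treatment was left, which allows no spread of its own. Over all alternatives its adjusted p from limma ran up to 0.451. *INHBA* had a mean of -0.83 ± 0.27 (SE, n = 2; adjusted p = 0.165 from limma). Both SE are moderated ones and so are not the SE of the 2 ratios of a gene.

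Other pathway genes differed between the squamous lines. In EBC-1 5 of 10 measured receptors had a ratio above 1, where 5.96% of all genes had. In SK-MES-1 1 of 11 had, where 2.57% of all genes had. The list medians were 0.93 in EBC-1, against 0.05 for all genes, and 0.02 in SK-MES-1. A gene counted where either channel was well above background, so a dim receptor could enter through a high treated channel. These counts and medians are therefore not read as a rise. When both channels had to be well above background, only *TGFBR2* of the receptors was past 2-fold, in EBC-1. *THBS1*, which activates latent TGF-beta, had a ratio of 1.45 in EBC-1 but of 0.23 for SK-MES-1. *IL11* was at -1.83 and -0.49, and *FST*, which binds and blocks activin, was at -1.25 and -0.77. Of 25 measured TGF-beta targets in EBC-1, 5 were above 1 and 1, *IL11*, below -1. Of 18 ligands and activators there, 4 were above 1 and 1 below -1. Over all genes 5.96% and 6.04% were. In SK-MES-1 0 of 25 targets were above 1 and 2 below -1, where 2.57% and 1.27% of all genes were. These counts also took genes with either channel above background. In SK-MES-1 *TGM2* was at -1.21 and *COL1A1* at -1.06. With 1 array per line these differences have no replicate check.

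**Figure D5:**
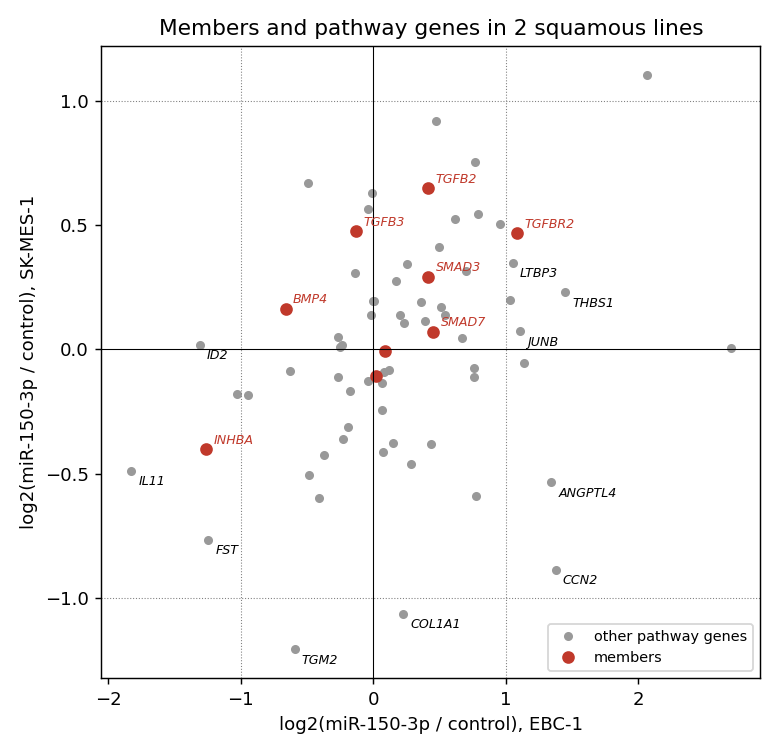
Log2 ratio after *miR-150-3p* in EBC-1 (horizontal) and SK-MES-1 (vertical), 1 array each, for the members in red and the other pathway genes reported here in grey. *INHBA* lies below 0 in both lines, at -1.26 and -0.40, and *TGFBR2* above 0 in both, at 1.09 and 0.47.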

How the data were processed

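Total RNA of 4 cell lines was measured on 8 Agilent arrays. Per the file headers, the deposited intensity values are processed signals of Feature Extraction 12.1.1.1 on an hg19 design, background-subtracted and dye-normalized by that software; the deposited log10 ratios of the value table hold the same arrays. The paper describes the *miR-150-3p* arrays only, and names no array processing. Ratios were log2(Cy5/Cy3) of the processed intensity. Spots called non-uniform or population outliers were left out, and a probe counted where at least 0.5 of its spots were well above background in a channel. Probes were named through RefSeq accessions (24782 of 50096 matched), and a gene was the mean of its probes. limma 3.58.1 in R 4.3.3 was fitted to all 8 arrays, with Benjamini-Hochberg adjustment over all genes tested at 0.05. It had 4 coefficients (4 residual df) for siDONSON and *LOXL2*, and 3 (5 residual df) for the *miR-150-3p* mean. These df hold for a gene with a ratio on every array, and other genes can have fewer. In the *LOXL2* fit the residual df of *TGFB2*, *TGFBI* and *BMP4* came from the A549 arrays only. The genes behind the prior spread of eBayes were not set in the design. All genes with a value on any array were used first and were kept; the restriction to tested genes was tried after seeing the data and is given as an alternative, since it moves *TGFBI* and *TGFBR2* across the threshold. Single arrays were described by a log2 ratio past 1 and by 1.96 times the software error. Control levels were scaled with Aquantile. The normexp alternative (offset 50) used median signals. The fit was tested on simulated data. Other pathway genes were named as up to 5 lowest and 5 highest per comparison among those called, or, for *miR-150-3p*, past 2-fold with both channels above background; the remaining genes are given as counts, and some genes of the lists are not reported here. The members and lists were chosen with earlier results of these data known. The number of arrays limits the precision.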

Additional observations from a re-analysis of the deposited data

Results flagged for a closer look

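Among the pathway genes, *CCN2* and *ANGPTL4*, both targets of TGF-beta, had opposite directions in the 2 squamous lines after *miR-150-3p*. For *CCN2* the log2 ratio was 1.38 in EBC-1 but -0.89 for SK-MES-1, a difference of 2.26 on the log2 scale, and *ANGPTL4* was at 1.34 and -0.53, a difference of 1.88. All 4 values lay outside the software error limits, and the difference between the lines was not tested. The 2 genes were picked from the pathway genes for this difference. The share of all genes with opposite directions in the 2 lines was not counted.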

How the results depend on the processing

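No member's called value changed sign under any alternative. No paired analysis was possible because each array already sets a treatment against its own control, and the groups that share replicate numbers are different cell lines. Numbers of genes called moved most. For siDONSON (1052 genes), normexp gave 2205, no filter on dim probes 3786 and the spread of the SBC-3 arrays alone 9, and leaving out each array gave 15 to 1772, the lowest without siDONSON-3. Members called went from 1 to 2 with normexp and to 0 with the spread of the SBC-3 arrays alone, and to 0 to 2 when an array was left out. For *LOXL2* (2625 genes), normexp gave 3964, no filter 6030 and the spread of the A549 arrays alone 5629, and leaving out each array gave 336 to 547. The 3 members called became 0 whichever array was left out. For the *miR-150-3p* mean (369 genes), normexp gave 1654, both channels above background 795, no filter 198, the 6 arrays of other treatments subtracted 765, the prior spread of the tested genes only 765 (chosen after seeing the data) and the spread of the *miR-150-3p* arrays alone 0, with 1944 at an unadjusted p under 0.05 in limma. Leaving out each array gave 1 to 2412, the lowest without EBC-1. Members called went from 0 to 1 with normexp, with both channels above background and with the prior spread of the tested genes, and to 0 to 1 on leaving out an array. Without the filter, 1021 of 3786 siDONSON calls were higher, 1720 of 6030 for *LOXL2* and 64 of 198 for *miR-150-3p*. In EBC-1, 1 member was past 2-fold with normexp and 0 after subtracting the mean of the 6 other arrays, where *TGFBR2* was at 0.90 and *INHBA* has no value. Control levels gave 4 members past 2-fold with normexp. The cause of these shifts was not tested. Signal over background limits *TGFB3* and *BMP4* in A549, and *TGFBR1* in EBC-1 and SBC-3.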
